A study of Mus musculus with 12 samples.

Results

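Imprinted genes are transcribed mainly or only from the chromosome inherited from 1 parent. The genes described here are 45 imprinted genes of the mouse from 21 imprinted clusters, taken from a list that leaves out Grb10, and they were found in the table by matching Ensembl identifiers to GRCm38 symbols and keeping genes with more than 10 counts in total. Of the 45, 33 were measured and passed, from 20 clusters, among 18911 genes in the table and 17076 genes tested. They were 17 of 23 paternally expressed genes, 10 of 15 maternally expressed genes and 6 of 7 genes whose parental origin depends on tissue or transcript. The other 12 (H19, Meg3, Rian, Mirg, Dio3, Begain, Snrpn, Snurf, Phlda2, Kcnq1ot1, Slc38a4 and Peg13) were not analysed here.

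RNA was sequenced from neural progenitor cells (mNPCs) cultured from the hippocampus of newborn mice, with 3 libraries for each of 4 genotypes. Kmt2a encodes a histone methyltransferase whose heterozygous loss causes Wiedemann-Steiner syndrome in people. Kmt2a+/+ cells were wild type. Kmt2a+/LSL cells carried a loxP-stop-loxP (LSL) cassette in the first intron of 1 Kmt2a allele, which ends the transcript early, and no Cre. Nes-Cre+/- Kmt2a+/+ cells carried a Cre transgene driven by nestin regulatory sequence, which acts in neural cells, and no cassette. Nes-Cre+/- Kmt2a+/LSL cells carried both, so that Cre could remove the cassette. The study describes the libraries of a genotype as biological replicates, and the sources used here do not say whether each came from a different pup, so the p-values measure the spread between these cultures.

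In each imprinted cluster, DNA methylation set in the egg or the sperm marks a control region, and that mark decides which parental copy of the neighbouring genes is read. Many paternally expressed genes, such as Igf2, Peg3, Mest and Dlk1, favour fetal growth, and several maternally expressed genes, such as Cdkn1c and Igf2r, restrain it. Neural stem cells depend on the dose of some of these genes, and in brain a few clusters choose another parental copy or lose the choice. The counts here sum both alleles of a gene, so they give its total RNA and not the allele it came from.

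Library totals lay between 18280008 and 28596919 counts. Kmt2a itself was at 3972 to 3991 normalized counts (counts divided by the scaled library size and brought to a common depth) in the 3 Kmt2a+/LSL libraries and at 6205 to 7427 in the other 9, in the order the labels give. The neural progenitor markers Fabp7, Vim, Sox2, Nes, Sox9, Hes5, Pax6 and Mki67 summed to between 142360 and 342710 normalized counts in each library, and the 6 choroid plexus markers to between 10.5 and 37.1. The neuron list summed to 24337 to 45922, most of it Map2, with Stmn2 at a mean of 2.01. The astrocyte list summed to 57105 to 108040, most of it Slc1a3, which progenitors also express, and the oligodendrocyte lineage list to 11279 to 28506, most of it Olig2. The part of such cells in the results was not tested. Kmt2a+/+ replicate 1 stood apart, with 12.7% of its counts from mitochondrial genes, Nes-Cre+/- Kmt2a+/LSL replicate 1 had 10.3%, and the remaining libraries had 3.96% to 6.88%. Many results that rest on Kmt2a+/+ replicate 1 are therefore given with and without it. In bulk libraries, fewer cells of a type and less RNA per cell cannot be told apart.

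Grb10, the imprinted gene left out of the list, is given as a reference for the size of change these libraries can show. The 3 wild-type libraries held 5055, 4347 and 3994 normalized counts of it, and the 3 with the cassette alone held 1882, 2049 and 1522. Between these genotypes the log2 fold change was -1.30 (SE 0.17), with adjusted p = 0.112 in edgeR's quasi-likelihood test (0.0385 without Kmt2a+/+ replicate 1). With Cre and the cassette together the libraries held 4617, 4240 and 4964.

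Start regions of 28 of the 33 genes were read from RefSeq (GRCm38.p6) as the 250 bases before the start site, taking for each gene the start with the most CG dinucleotides, the sites at which imprinted control regions carry methylation. The 28 genes had a median of 14 CG dinucleotides in these bases, with a range from 0 in Slc22a18 to 36 in Cobl, against a median of 6 over 27025 genes, and 25 of the 28 lay above that median. Below are the stretch between Peg3 and Usp29, shown because both genes start beside it in opposite directions and differ widely in level, and the bases before the start of Mest, the well-measured member whose libraries were separated when Cre was added to the cassette. CG dinucleotides are in capitals. The first is chr7:6730432-6730577 on the plus strand, 146 bases with 5 CG dinucleotides that lie outside the GENCODE exons of both genes, and the start sites in RefSeq are 164 bases apart. The second is chr6:30737800-30738049 on the plus strand, with 14 CG dinucleotides, a count that 31.7% of all genes reach or pass.
Peg3-Usp29 stretch: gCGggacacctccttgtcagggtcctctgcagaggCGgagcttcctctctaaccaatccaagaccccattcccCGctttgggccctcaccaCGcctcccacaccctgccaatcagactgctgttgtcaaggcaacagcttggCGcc
Mest start region: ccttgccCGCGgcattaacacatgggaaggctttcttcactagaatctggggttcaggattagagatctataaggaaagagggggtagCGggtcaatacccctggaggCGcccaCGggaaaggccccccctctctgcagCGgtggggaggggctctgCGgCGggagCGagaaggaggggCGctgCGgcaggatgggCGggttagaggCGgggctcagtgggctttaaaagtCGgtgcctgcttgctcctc

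The measured genes spanned more than 4 orders of magnitude in level per kb of transcript. Of the 33, 14 had a mean of at least 1000 normalized counts over the 12 libraries, 10 had a mean from 50 to 1000 and 9 had a mean under 50. Levels between genes were compared per kb of the median annotated transcript, which ignores which transcript the cells used. Short annotated transcripts lower that median and raise the value per kb, so the order depends on the annotation. The median was 607 bases for Mest, 448 for Blcap and 803 for Igf2r. Without division by length, the highest means were those of Gnas at 27425 normalized counts, Nnat at 19096 and Peg3 at 5686.5. Per kb Nnat, a paternally expressed membrane proteolipid of developing brain, was highest at a mean of 22639 normalized counts. Gnas, which encodes the stimulatory G protein alpha subunit, followed at 16080, Mest, a hydrolase-fold protein, at 6712, Blcap at 4455 and Igf2r, the receptor that takes up IGF2 for degradation, at 4023. Grb10 was at 4195 per kb. At the low end Magel2 was at 0.930, Usp29 at 1.40, Rasgrf1 at 1.60 and Slc22a18 at 2.92.

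**Figure D1:**
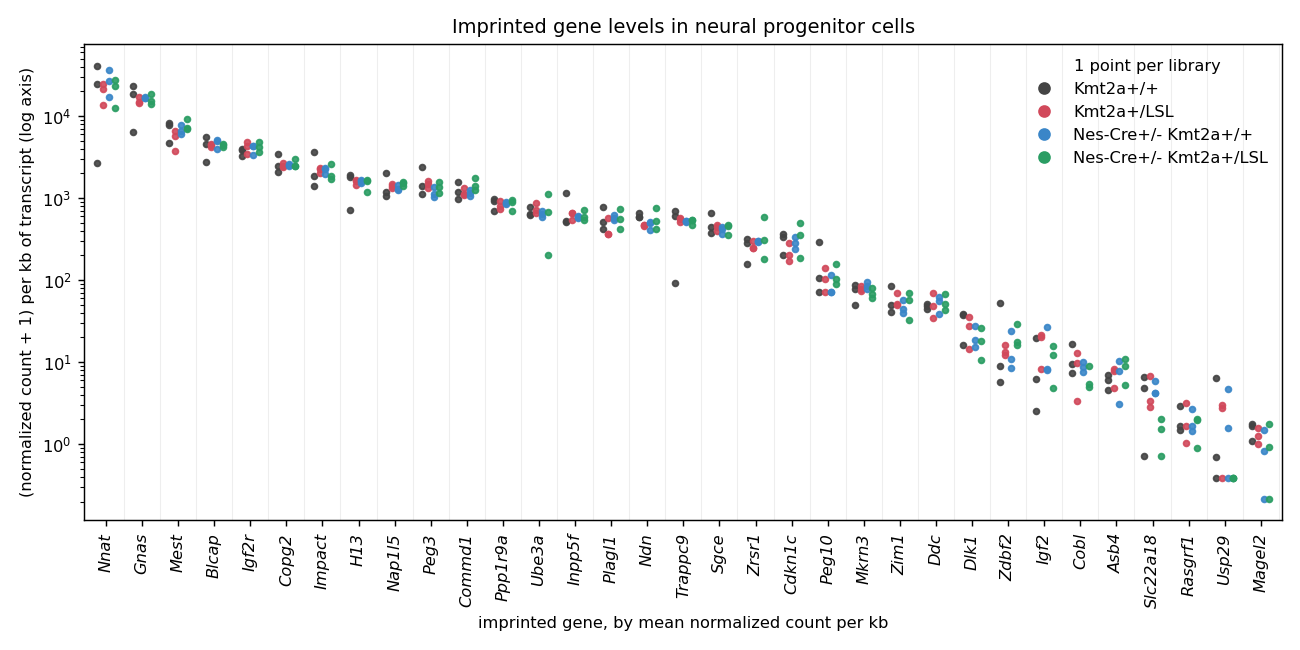
Level of each of the 33 imprinted genes in each of the 12 libraries. The log axis gives the normalized count plus 1 per kb of the median annotated transcript, the genes run from the highest to the lowest mean per kb, and each point is a library coloured by genotype. Nnat and Gnas lead and Usp29, Rasgrf1 and Magel2 are lowest, with at most 12 counts of any of the 3 in a library.

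Neighbours that share a cluster were often read at very different levels. Peg3, a paternally expressed zinc-finger protein at chr7:6703892-6730431, was at 4171 to 9741 normalized counts over the 12 libraries. Usp29, a ubiquitin-specific peptidase that starts on the far side of the 146-base stretch printed above, had no counts in 6 libraries and 1 to 12 counts in the other 6. Per kb of transcript, the means were 1410 for Peg3 and 1.40 for Usp29. Zim1, the maternally expressed zinc-finger gene beyond Peg3, was at 77.6 to 201 normalized counts and at a mean of 53.3 per kb, 26.4 times lower than Peg3. Ndn, which encodes the MAGE family protein necdin and is transcribed in neural cells, was at a mean of 530 normalized counts per kb and its neighbour Magel2 at 0.930, although both are paternally expressed.

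Other neighbours were closer. Peg10, derived from a retrotransposon, and Sgce, which encodes epsilon-sarcoglycan, start next to each other and are both paternally expressed, and their means per kb were 116 and 443, a ratio of 0.263. Mest and Copg2, a coatomer subunit transcribed toward it from the maternal copy, were at 6712 and 2585 per kb, a ratio of 2.60. The 2 genes share transcribed sequence: of the distinct stretches of 31 bases in their annotated transcripts, 22.0% of those of Mest and 17.6% of those of Copg2 occurred in the other gene or elsewhere, so their counts may be split with some error. Zrsr1, a paternally expressed splicing protein gene that lies within an intron of the maternally expressed Commd1, shared 8.19% of its stretches. The means per kb of Zrsr1 and Commd1 were 293 and 1260, a ratio of 0.233. These ratios depend on the annotated lengths. In normalized counts without division by length, the median ratio over the libraries was 1.01 for Peg10 to Sgce and 1.42 for Mest to Copg2. For Zrsr1 to Commd1 it was 1.24, so their order turned. Igf2 shared 63.1% of its stretches, mostly with Gm49394. Cdkn1c shared 27.2%, Ube3a 26.5%, Gnas 19.9% and Usp29 16.1%, so the counts of these genes and of Igf2 may also be split with some error.

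The growth regulators Igf2 and Dlk1 were among the lower genes. Igf2, the fetal insulin-like growth factor at chr7:142650766-142666816, had 1, 19 and 6 counts in the wild-type libraries, 22, 7 and 18 in those with the cassette alone, 7, 24 and 7 in those with Cre alone and 3, 12 and 13 in those with both. Dlk1, a transmembrane protein related to Notch ligands, was at 12.6 to 48.5 normalized counts over the 12 libraries. The ranges of all 4 genotypes overlapped for both genes. The mesenchymal marker list, whose cells read many imprinted growth genes, summed to 297 to 470 normalized counts, of which Foxc1 alone had a mean of 274, and Lum had a mean of 2.71.

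The first question is whether imprinted genes other than Grb10 differed between libraries with and without the LSL allele. For Kmt2a+/LSL against Kmt2a+/+, edgeR gave 0 of the 33 genes an adjusted p below 0.05 and 0 an unadjusted p below 0.05. The background was 0% of 17076 genes at the adjusted threshold and 2.11% at the unadjusted one, so the test called no gene of any kind, Grb10 included, at this threshold. The DESeq2 Wald test called 7 genes, of which 0 were among the 33. The median log2 fold change was -0.083 over the 33 genes, with 23 below 0 and 10 above, and -0.000645 over all genes tested. Over the 33 genes it was 0.050, with 15 below and 18 above, when Kmt2a+/+ replicate 1 was left out. By origin the medians were -0.18 for paternal, -0.047 for maternal and -0.0072 for variable genes, and -0.040, 0.12 and -0.077 without that library. The sign of the list's median thus turned when 1 library was left out.

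The intervals give the range of changes that the spread between libraries allows. The 95% interval of Grb10 itself was -1.66 to -0.93, and its -1.30 was taken as a fixed value. For 25 of the 33 genes the 95% interval of the log2 fold change did not reach the -1.30 of Grb10, each interval taken alone. Of the 8 that did reach it, Nnat, Peg10 and Zdbf2 had a mean of at least 50 normalized counts, and Cobl, Magel2, Rasgrf1, Slc22a18 and Usp29 were lower. When Kmt2a+/+ replicate 1 was left out, the count was 27 of 33 against the -1.20 of Grb10 in that fit, and the 6 that reached it were Cdkn1c, Magel2, Nnat, Rasgrf1, Slc22a18 and Usp29, so that Cobl, Peg10 and Zdbf2 left the set and Cdkn1c entered it. With all libraries, for 18 of the 33 (20 without Kmt2a+/+ replicate 1) the whole interval lay within 1 log2 unit of 0. For the other 15 in the fit with all libraries it reached past 1 unit on at least 1 side, and the measured values do not settle changes of that size in them.

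**Figure D2:**
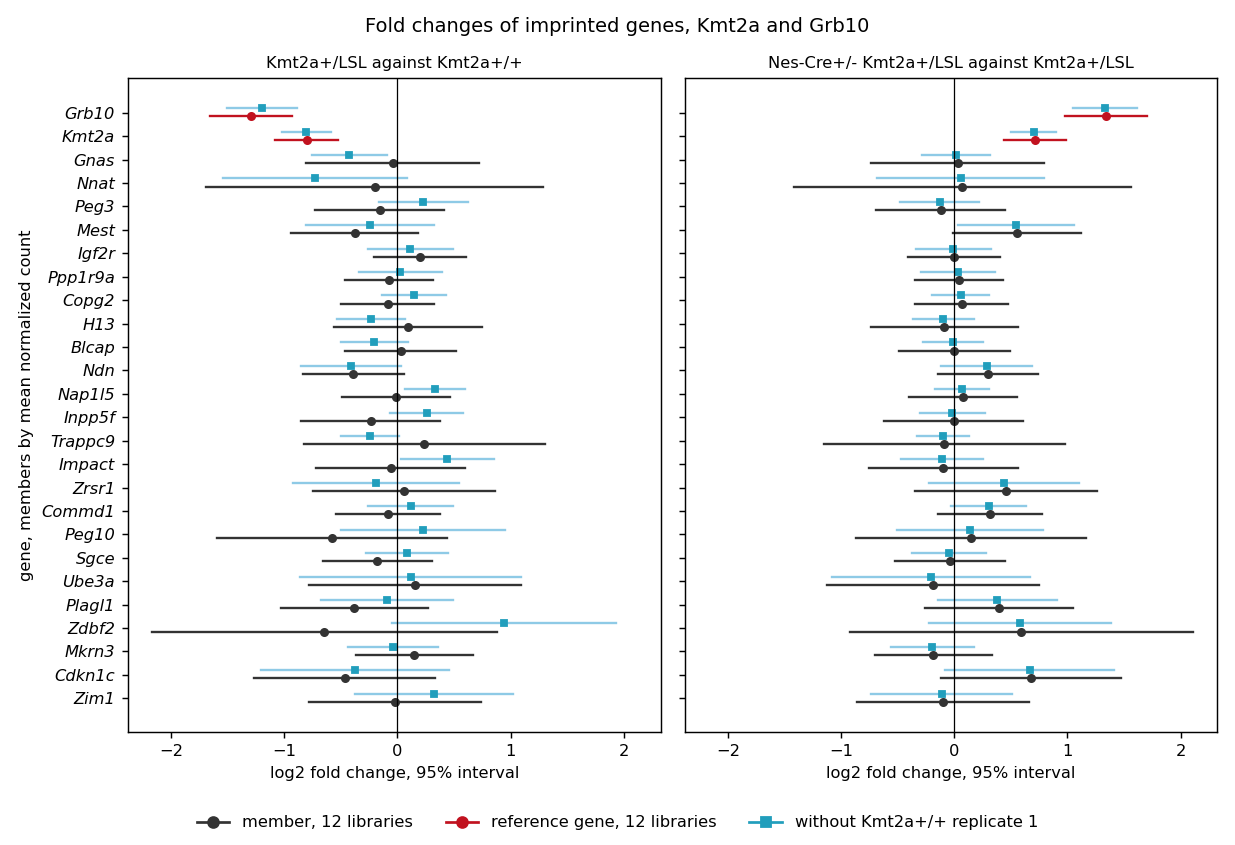
Log2 fold changes (points) with 95% intervals (lines) for the 24 imprinted genes with a mean of at least 50 normalized counts and for Kmt2a and Grb10 in red, in Kmt2a+/LSL against Kmt2a+/+ on the left and Nes-Cre+/- Kmt2a+/LSL against Kmt2a+/LSL on the right; blue squares with pale lines are the fit without Kmt2a+/+ replicate 1. In the 12-library fit every member's interval includes 0 in both panels, while those of Grb10 and Kmt2a do not.

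Ndn, at chr7:62346569-62350262, was the one gene of the 33 whose libraries did not overlap between the 2 genotypes, where 4.05% of all genes were separated in either direction. Its normalized counts were 2193, 2145 and 2416 in the wild-type cultures, against 1697, 1731 and 1722 with the cassette alone. All 3 Kmt2a+/LSL libraries lay below the lowest Kmt2a+/+ library, and they differed among themselves by less than any other genotype did. The log2 fold change was -0.39 (SE 0.20, 95% interval -0.84 to 0.054, adjusted p = 1 in edgeR). The two-sided exact permutation test gave p = 0.1, the smallest that 3 libraries against 3 can give. The Cre controls held 1908, 1522 and 1847 normalized counts of Ndn.

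For Plagl1, Cdkn1c, Peg3, Igf2 and Dlk1, the difference between the means of these genotypes was smaller than the larger of their SDs. Plagl1, a zinc-finger transcription factor that acts on other imprinted genes, was at 351, 189 and 227 without the cassette and at 255, 164 and 164 with it, which gave a log2 fold change of -0.38 (SE 0.30), or -0.093 (SE 0.27) without Kmt2a+/+ replicate 1. Cdkn1c, an inhibitor of cyclin-dependent kinases, was at 225, 243 and 135 against 112, 188 and 134, and the log2 fold change was -0.47 (SE 0.37), or -0.37 (SE 0.38) without that library. The groups overlapped for both genes. Peg3 was at 9741, 4513 and 5595 against 6532, 5284 and 5957, and its log2 fold change was -0.16 (SE 0.26) with all libraries and 0.23 (SE 0.18) without Kmt2a+/+ replicate 1, a change of sign. For Igf2 the log2 fold change was 0.79 (SE 0.76) and for Dlk1 -0.23 (SE 0.47), and without that library 0.44 (SE 0.72) and -0.097 (SE 0.49), with the interval of each including 0 in both fits. With all libraries every one of these genes had an adjusted p of 1 in edgeR. Single libraries moved several of these values: with Kmt2a+/+ replicate 2 left out, Igf2 was at 2.03, and over all single libraries left out Cdkn1c ran from -0.72 (Kmt2a+/LSL replicate 2) to -0.30 (Kmt2a+/+ replicate 2) and Plagl1 from -0.63 (Kmt2a+/LSL replicate 1) to -0.093. Dlk1 ran from -0.55 to 0.058 in the same way, so its sign turned. A GC offset, an adjustment chosen after seeing the data, put Cdkn1c at -1.28.

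Ddc and Cobl flank Grb10 on chromosome 11. Ddc, the decarboxylase that makes dopamine and serotonin, lies at chr11:11814101-11898144 and was at 44.2, 38.1 and 41.1 normalized counts in wild-type cultures, against 29.6, 60.3 and 41.3 with the cassette. Cobl, an actin nucleator at chr11:12236608-12464960, was at 65.6, 28.6 and 37.0 against 50.3, 37.9 and 12.4. The groups overlapped for both, and neither gene exceeded 65.6 normalized counts in any library. Their log2 fold changes were 0.091 (SE 0.34) and -0.32 (SE 0.47). Ddc was at 0.13 (SE 0.37) without Kmt2a+/+ replicate 1, and it ran from -0.23 to 0.31 with single libraries left out, so its sign turned. The interval of Ddc, -0.66 to 0.84, did not reach the change of Grb10, and that of Cobl, -1.35 to 0.71, did. Without Kmt2a+/+ replicate 1 the log2 fold change of Cobl was 0.050 (95% interval -0.97 to 1.07), which did not reach the -1.20 of Grb10, and its sign also turned, to 0.058, when Kmt2a+/LSL replicate 3 was left out instead.

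**Figure D3:**
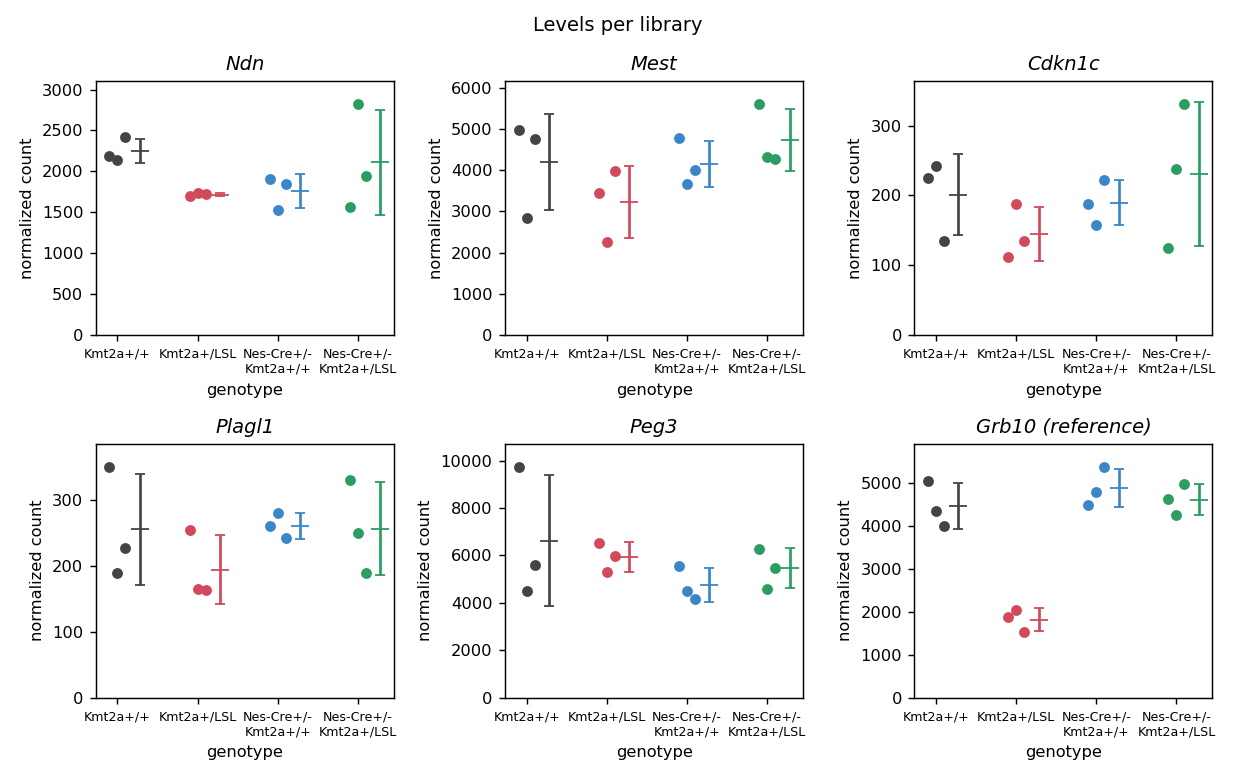
Normalized counts per library (points) with the mean and SD of the 3 libraries (bars beside them) for Ndn, Mest, Cdkn1c, Plagl1, Peg3 and the reference Grb10 in the 4 genotypes, on linear axes from 0. Grb10 is lower in all 3 Kmt2a+/LSL libraries than in the other 9, a pattern that none of the other 5 genes has.

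The second comparison sets libraries with Cre and the cassette against those with the cassette alone. These groups differ in the Cre transgene as well as in the cassette, and this comparison alone does not separate them, while the Cre transgene by itself is compared further on. For Nes-Cre+/- Kmt2a+/LSL against Kmt2a+/LSL, edgeR gave 0 of the 33 genes an adjusted p below 0.05 (background 0% of 17076 genes) and 0 an unadjusted p below 0.05 (background 2.07%), while the DESeq2 Wald test called 7 genes and 0 of the 33. DESeq2 with an empirical null, in which the z-scores are rescaled to the spread of the bulk of genes, called 4 of the 33, which were Mest, Cdkn1c, Slc22a18 and Usp29 (adjusted p 0.0032 to 0.00918), and 931 of all genes. The median log2 fold change was -0.000955 over the 33 genes and 0.00126 over all genes. For 28 of the 33 genes the 95% interval did not reach the 1.34 of Grb10, and Cdkn1c, Magel2, Nnat, Usp29 and Zdbf2 were the exceptions. This comparison shares the Kmt2a+/LSL libraries with the first.

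Mest, at chr6:30723547-30748465, and Slc22a18 were the genes whose libraries did not overlap, 2 of 33, where the background was 7.1% of all genes. Mest stood at 3446, 2252 and 3969 normalized counts with the cassette in place and at 5603, 4323 and 4273 with Cre added. The lowest library with Cre lay above the highest without it. The log2 fold change was 0.55 (SE 0.26, 95% interval -0.0082 to 1.12, adjusted p = 1 in edgeR), and the two-sided exact permutation p was 0.1, the smallest possible. Its log2 fold change was 0.36 with Kmt2a+/LSL replicate 2 left out. The wild-type libraries, at 4969, 2850 and 4754, and those of the Cre controls, at 4772, 3674 and 4007, overlapped those of Kmt2a+/LSL. Copg2, its neighbour with shared sequence, was at 2320 to 3855 in all libraries, and its log2 fold change in this comparison, a gene chosen after its values were seen, was 0.066 (SE 0.19), and -0.037 without Nes-Cre+/- Kmt2a+/LSL replicate 1.

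Slc22a18, a maternally expressed transporter of the Kcnq1 cluster, was close to the floor. Its counts were 4, 3 and 8 with the cassette alone and 0, 2 and 1 with Cre added. The ratio of the pooled counts was 0.217, with an exact 95% interval of 0.0402 to 0.767 that covers counting error only. Kmt2a+/+ replicate 1 also had 0 counts. Without Kmt2a+/+ replicate 1 in the fit, the unadjusted p in edgeR was 0.0246 for Slc22a18 and 0.0379 for Mest, each with an adjusted p of 1, where 4.37% of all genes passed. Usp29 had 0 counts in all 3 Nes-Cre+/- Kmt2a+/LSL libraries, but also 0 in Kmt2a+/+ replicate 2, Kmt2a+/LSL replicate 1 and Nes-Cre+/- Kmt2a+/+ replicate 1.

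Cdkn1c was at 124, 238 and 331 with Cre added, 0.68 (SE 0.36) above Kmt2a+/LSL on the log2 scale. Plagl1 was at 330, 250 and 189, 0.40 (SE 0.30) above it. In both genes the range within the 3 libraries exceeded the difference between the means. For Ndn, at 1568, 2822 and 1943, the log2 fold change was 0.30 (SE 0.20), and 1 of the 3 libraries lay below all of Kmt2a+/LSL. Peg3 at -0.12 (SE 0.26), Dlk1 at -0.55 (SE 0.50), Igf2 at -0.63 (SE 0.75), Ddc at 0.11 (SE 0.34) and Cobl at -0.48 (SE 0.50) had log2 fold changes whose intervals included 0. All these had an adjusted p of 1 in edgeR. Leaving out 1 library at a time moved them widely. Ndn ran from 0.033 without replicate 2 of Nes-Cre+/- Kmt2a+/LSL to 0.47 without its replicate 1, and Cdkn1c from 0.33 without its replicate 3 to 0.97 without its replicate 1. Plagl1 ran from 0.18 without replicate 1 of that genotype to 0.64 without Kmt2a+/LSL replicate 1. Igf2 ran from -0.98 to -0.28 and Dlk1 from -0.92 to -0.23, without replicates 3 and 1 of Nes-Cre+/- Kmt2a+/LSL for the former and 3 and 2 for the latter. Peg3 ran from -0.23 to -0.0079 without replicates 1 and 2 of that genotype. Cobl ran from -0.85 without Kmt2a+/LSL replicate 3 to -0.056 without its replicate 1, and Ddc from -0.11 without Kmt2a+/LSL replicate 1 to 0.42 without its replicate 2, so that its sign turned. Without the replicates 1 of Kmt2a+/+ and Nes-Cre+/- Kmt2a+/LSL, 7 genes were separated (Impact and Slc22a18 lower, Asb4, Cdkn1c, Mest, Ndn and Zrsr1 higher), 21.2% of the 33 against 18.6% of all genes.

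The Cre controls allow a comparison that shares no library with the first. For Nes-Cre+/- Kmt2a+/LSL against Nes-Cre+/- Kmt2a+/+, edgeR gave 0 of the 33 genes an adjusted p below 0.05 (background 0%, and 3 genes with 0 of the 33 in the DESeq2 Wald test) and 1 an unadjusted p below 0.05 (background 1.53%). That gene was Slc22a18, with 5, 7 and 5 counts in the Cre controls and the 3 counts in all given above with the LSL allele. With single libraries left out, 0 to 3 of the 33 and 196 to 610 of all genes passed the unadjusted threshold, so Slc22a18 did not pass in every fit. The ratio of pooled counts was 0.188 (exact 95% interval 0.0353 to 0.650). The fitted log2 fold change, which at such counts depends on the prior count, was -2.29 (SE 0.96, unadjusted p = 0.0308 and adjusted p = 1 in edgeR). It and Commd1 were separated, 2 of 33 against 6.68% of all genes. Commd1, a regulator of copper handling at chr11:22896136-22982382, was at 800, 733 and 680 in the Cre controls and at 891, 806 and 1133 with the LSL allele, 0.35 higher on the log2 scale (SE 0.21, adjusted p = 1 in edgeR). This log2 difference was 0.20 without Nes-Cre+/- Kmt2a+/LSL replicate 3. The gap between the nearest libraries was 800 to 806. In Nes-Cre+/- Kmt2a+/LSL replicate 3, where Commd1 was highest, Zrsr1 within it was at 1945, against 514 to 1052 in the other 11 libraries. Without the replicates 1 of Kmt2a+/+ and Nes-Cre+/- Kmt2a+/LSL, 8 genes were separated (Cobl, Impact and Slc22a18 lower, Cdkn1c, Commd1, Ndn, Trappc9 and Zrsr1 higher), 24.2% of the 33 against 18.9% of all genes. With only the wild-type library left out, 3 of the 33 had an unadjusted p under 0.05 (Slc22a18, Usp29 and Commd1), against 3.59% of all genes. Each had an adjusted p of 1 in edgeR. The empirical null with DESeq2 called 2 of the 33, Slc22a18 and Usp29, and 253 of all genes.

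The Cre transgene alone was compared in the same way. For Nes-Cre+/- Kmt2a+/+ against Kmt2a+/+, edgeR gave 0 of the 33 genes an adjusted p below 0.05 (background 0%, and 3 genes with 0 of the 33 in the DESeq2 Wald test) and 0 an unadjusted p below 0.05 (background 1.76%). Ndn was again the separated gene, 1 of 33 against 4.35% of all genes, with a log2 fold change of -0.36 (SE 0.20, exact permutation p = 0.1), or -0.38 (SE 0.20) without Kmt2a+/+ replicate 1. This comparison shares the Kmt2a+/+ libraries with the first. The log2 fold change of Peg3 was -0.48 (SE 0.26) with all libraries and -0.095 (SE 0.18) without Kmt2a+/+ replicate 1, and without that library 8 genes were separated, 24.2% of the 33 against 29.3% of all genes. In that fit 3 of the 33 had an unadjusted p under 0.05, against 6.73% of all genes. They were Trappc9 at -0.31 (SE 0.12), Impact at 0.43 and Zdbf2 at 1.00 (SE 0.45) on the log2 scale, each with an adjusted p of 0.693 in edgeR. With all libraries the same genes were at 0.18 (SE 0.49), -0.060 (SE 0.30) and -0.59 (SE 0.69), so each sign turned. The median log2 fold change over the 33 was -0.060 with all libraries and 0.032 in that fit, so its sign turned too.

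Kmt2a+/LSL can also be set against all 9 libraries with more Kmt2a. Here edgeR called 0 of the 33 at an adjusted p below 0.05, against 0.00586% of all genes, which was 1 gene, Grb10. No gene was called (0 of all tested) when any library but the Kmt2a+/+ replicates 1 and 3 was left out. None was called either with all libraries when the replicate number was added to the fit. At an unadjusted p below 0.05 there were 0 of the 33 against 1.51% of all genes (0 against 3.41% without Kmt2a+/+ replicate 1), and the DESeq2 Wald test called 4 genes and 0 of the 33. With the empirical null DESeq2 called 1 of the 33, Mest (adjusted p = 0.0177), and 423 of all genes. None of the 33 was separated from the other 9 libraries, where 0.363% of all genes were. Mest was nearest by p, with means of 3222 and 4358 normalized counts, a log2 fold change of -0.43 (SE 0.21, 95% interval -0.90 to 0.037, adjusted p = 1 in edgeR) and a two-sided exact permutation p of 0.0591, and it was chosen after its values were seen. Its log2 fold change was -0.24 without Kmt2a+/LSL replicate 2. The log2 fold change of Grb10 was -1.35 (SE 0.15, edgeR adjusted p = 0.0191), with an exact permutation p of 0.00455, the smallest possible. For 30 of the 33 genes the 95% interval did not reach that change, the exceptions being Nnat, Usp29 and Zdbf2, and for all 33 it did not reach the -1.31 of Grb10 when Kmt2a+/+ replicate 1 was left out.

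The effect of the LSL allele with Nes-Cre was compared with that without. The difference had an adjusted p under 0.05 in edgeR for 0 of the 33 genes (background 0%, and 10 genes with 0 of the 33 in the DESeq2 Wald test) and an unadjusted p under 0.05 for 1 gene (background 2.01%). That gene was Ndn, with a difference of 0.65 on the log2 scale (SE 0.29, 95% interval 0.026 to 1.28, unadjusted p = 0.0426 and adjusted p = 1 in edgeR). When Kmt2a+/+ replicate 1 was left out, the difference passed for Ndn, at 0.67 (SE 0.27, unadjusted p = 0.0323, adjusted p = 0.978 in edgeR), and for Usp29, whose fitted value depends on the prior count, 2 of 33 against 3.71% of all genes. Over all single libraries left out it ran from 0.39 without replicate 2 of Nes-Cre+/- Kmt2a+/LSL to 0.83 without its replicate 1. The Nes-Cre+/- Kmt2a+/LSL libraries of Ndn ran from 1568 to 2822, the widest range of any genotype.

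**Figure D4:**
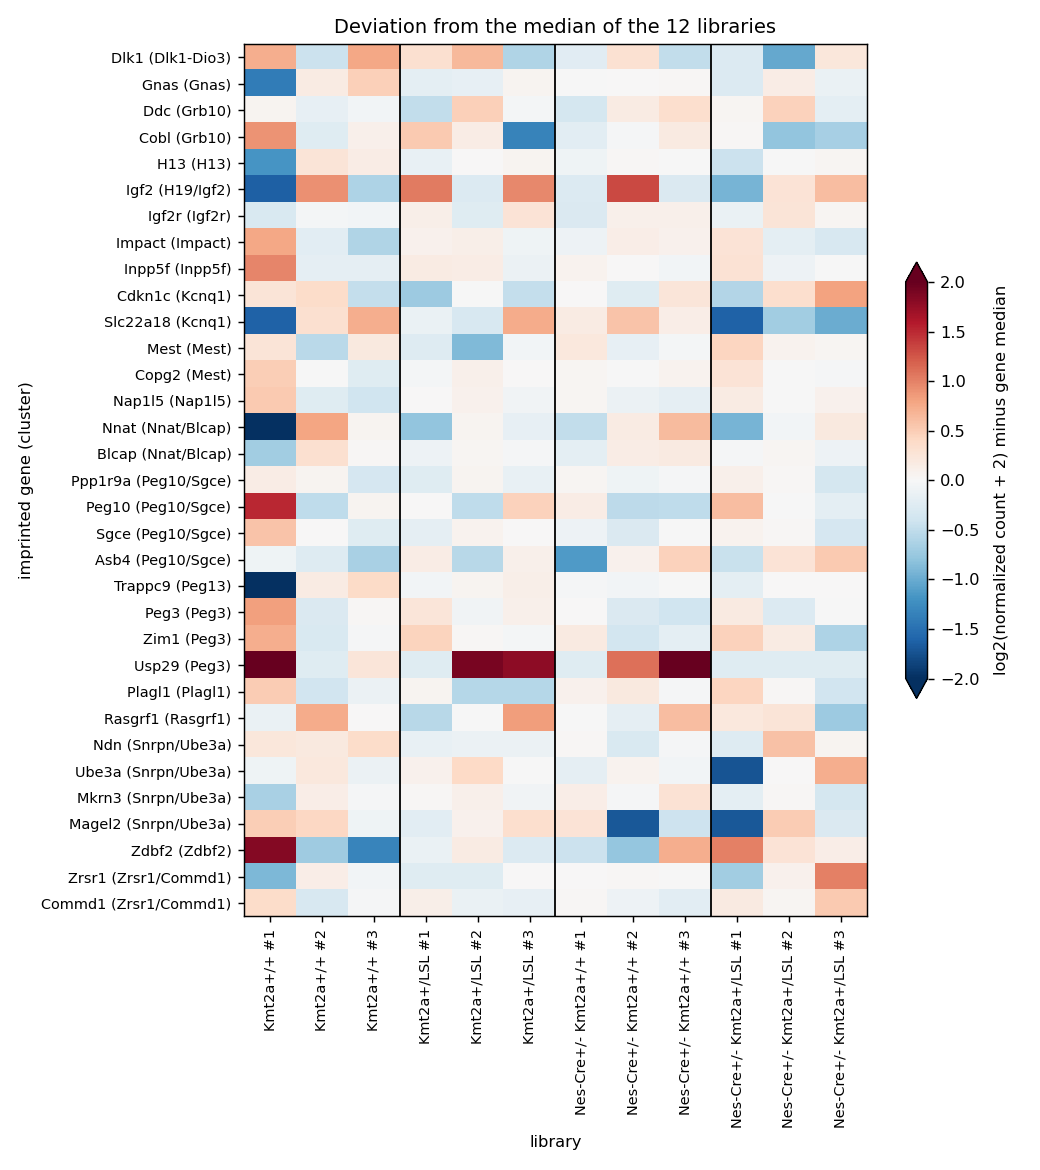
Deviation of each imprinted gene (rows, grouped by cluster) from its median over the 12 libraries (columns, 3 per genotype between the black lines), as log2 of the normalized count plus 2, with red above and blue below the median and the scale ending at 2 units. Kmt2a+/+ replicate 1 (first column) has the strongest colours across the well-measured rows. No genotype has 1 colour across all rows, though single rows such as Ndn have 1 colour within a genotype.

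Library differences exceeded genotype differences for many of these genes. Of the 24 genes with a mean of at least 50, 16 had their most distant value in Kmt2a+/+ replicate 1, against 0 to 4 for any other library. In that library Nnat was at 2250 normalized counts, and at 10526 to 34727 in the other 11. Trappc9, a subunit of a trafficking complex, was at 291 there and at 1463 to 2181 elsewhere. Gnas was at 10817 there and at 23662 to 39440 elsewhere. In the other direction Zdbf2 was at 630 against 69.1 to 354, Peg10 at 1959 against 477 to 1052 and Inpp5f at 3014 against 1345 to 1877. Of these, Nnat, Gnas and Trappc9 had transcripts with 59.4%, 57.9% and 55.9% G and C, and Zdbf2, Peg10 and Inpp5f had 42.3%, 47.2% and 45.2%. Of the 5 genes with at least 55%, 4 were below the median of the other libraries in Kmt2a+/+ replicate 1, with Cdkn1c (59.8%) above it, and of the 16 genes under 50%, 13 were above. The 3 under 50% that were below it were Zrsr1 (45.1%), Mkrn3 (49.9%) and Ube3a (38.2%).

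Across the 24 genes, the deviation of Kmt2a+/+ replicate 1 from the other libraries had a correlation of -0.67 with the GC content of the transcripts, and that of Nes-Cre+/- Kmt2a+/LSL replicate 1 of -0.22. Over 10764 genes with a mean log2 CPM above 2 the values were -0.72 and -0.55. The genes share a library and are not independent, so these are descriptions. The part of GC content, mitochondrial share or any property of the culture in these levels was not tested. Without Kmt2a+/+ replicate 1, the median coefficient of variation of the 24 genes over libraries was 15.8%, against 24.6% with it, and the median error of their log2 fold changes in Kmt2a+/LSL against Kmt2a+/+ fell from 0.29 to 0.18.

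**Figure D5:**
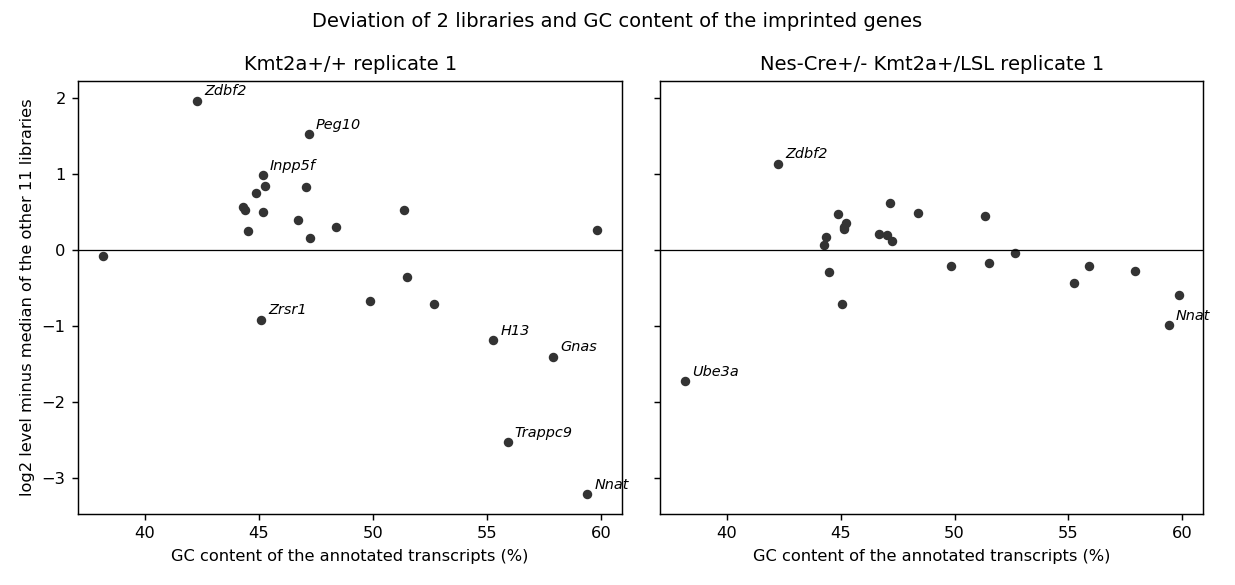
GC content of the annotated transcripts (horizontal axis, %) and log2 level in Kmt2a+/+ replicate 1 (left) or Nes-Cre+/- Kmt2a+/LSL replicate 1 (right) minus the median of the other 11 libraries (vertical axis), for the 24 genes with a mean of at least 50 normalized counts. On the left the level falls from Zdbf2 to Nnat, with Cdkn1c at the right edge above 0, and on the right the slope is smaller, with Ube3a low at the left edge.

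With Kmt2a+/+ replicate 1 left out, 3 of the 33 genes had an unadjusted p under 0.05 in Kmt2a+/LSL against Kmt2a+/+. They were Gnas, at -0.43 on the log2 scale (SE 0.15, adjusted p = 0.507 in edgeR), Impact, a regulator of the GCN2 kinase, higher by 0.44 (SE 0.19, adjusted p = 0.512) and Nap1l5, a nucleosome assembly protein, higher by 0.33 (SE 0.12, adjusted p = 0.507). With all libraries they were at -0.044 (SE 0.35), -0.061 (SE 0.30) and -0.011 (SE 0.22), so the signs of Impact and Nap1l5 turned. In the fit without Kmt2a+/+ replicate 1, 1645 of all genes passed that threshold, against 361 with all libraries. The 9 genes then separated were Gnas, H13, Ndn, Nnat and Trappc9 on the lower side and Impact, Inpp5f, Nap1l5 and Zdbf2 on the higher side, 27.3% of the 33 against 28.8% of all genes. A group of 2 libraries is separated from 3 more easily, and the share of imprinted genes was near that of all genes. Of the remaining Kmt2a+/+ libraries, replicate 3 deviated with GC content in the opposite direction to replicate 1, with a correlation of 0.68 over the 10764 genes.

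Nes-Cre+/- Kmt2a+/LSL replicate 3 followed, with the most distant value of 4 of the 24 genes. Ube3a, the E3 ubiquitin ligase that is read from the maternal copy in neurons, was at 154 in Nes-Cre+/- Kmt2a+/LSL replicate 1 and at 853 in replicate 3 of that genotype, and at 454 to 676 in the other 10 libraries. The same replicate 3 also held the highest Cdkn1c, Zrsr1 and Commd1 of all 12 libraries. Steadier genes included Ppp1r9a, which encodes the actin-binding protein neurabin, at 2505 to 3526, Igf2r at 2619 to 3910 and Copg2, with ratios of the highest to the lowest library of 1.41, 1.49 and 1.66.

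A further list of 40 imprinted genes outside the 45 had 32 measured members. In Kmt2a+/LSL against Kmt2a+/+, 0 of the 32 had an unadjusted p under 0.05, against 2.11% of all genes, and their median log2 fold change was 0.022, with 15 below 0 and 17 above. In the other 5 comparisons the count was 0 of 32 as well, against 1.51% to 2.07% of all genes, with medians between 0.0044 and 0.11. Without Kmt2a+/+ replicate 1, the counts over 31 genes were 2 (Slc22a3 and Nhlrc1) in Nes-Cre+/- Kmt2a+/+ against Kmt2a+/+, where 6.73% of all genes passed, 1 (Cntn3) in Kmt2a+/LSL against the other 3 genotypes, where 3.41% did, and 0 in the rest.

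Factors that set or keep imprints were also measured, as 21 of a list of 24. The list holds the maintenance methyltransferase Dnmt1 with its partner Uhrf1, the zinc-finger protein Zfp57 with Trim28 and Setdb1, which protect methylated imprints, and Ctcf, the insulator protein of several control regions. In Kmt2a+/LSL against Kmt2a+/+, 0 of 21 had an unadjusted p under 0.05, against 2.11% of all genes, and the median log2 fold change was -0.033, with 13 below 0 and 8 above. Without Kmt2a+/+ replicate 1 the count was 4 of 21 (Smchd1, Hells, Arid4b and Atrx, all higher in Kmt2a+/LSL), against 9.68% of all genes, with adjusted p of 0.507 to 0.512 in edgeR, and the median was 0.19 with 7 below and 14 above. With all libraries these 4 were at -0.21, -0.75, -0.078 and -0.27 on the log2 scale, all lower in Kmt2a+/LSL, so each sign turned. Dnmt1 had means of 4137 ± 1656 (SD, n = 3) normalized counts in wild-type cultures and 3939 ± 1108 with the cassette alone, Zfp57 275 ± 93.5 and 202 ± 12.9, and Ctcf 3054 ± 750 and 2983 ± 250. In each the difference between means was smaller than the larger SD. With all libraries, the 1 factor with an unadjusted p under 0.05 in any of the 6 comparisons was Dnmt3b, a de novo methyltransferase, with 64.4 ± 17.2 in wild-type cultures and 105 ± 14.4 in the Cre controls, 0.69 higher on the log2 scale (SE 0.28, unadjusted p = 0.0294 and adjusted p = 1 in edgeR's test over all genes). In that comparison 1.76% of all genes passed. In the fit without Kmt2a+/+ replicate 1, the factors that passed there were Ctcfl, Arid4b and Atrx (3 of 21, against 6.73% of all genes), and Zfp57 passed in Nes-Cre+/- Kmt2a+/LSL against Nes-Cre+/- Kmt2a+/+ (1 of 21, against 3.59%). These genes of the 2 lists were chosen after their values were seen.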

How the data were processed

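From poly(A)-selected RNA, the authors obtained estimated counts with kallisto 0.48.0 on mm10 (GRCm38), summed per gene with tximport and biomaRt and deposited as whole numbers without normalization. The design had assumed counts, and these estimates entered the fits unaltered.

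All 12 libraries entered 1 fit with R 4.3.3 and edgeR 4.0.16, with genotype as the only term, TMM scaling and the quasi-likelihood F-test. A gene was kept if its counts summed to more than 10 and came from at least 2 libraries, and the Benjamini-Hochberg adjustment ran over all 17076. Groups and replicate numbers came from the sample labels. Normalized counts were scaled to the mean library size, 23957338, with a prior count of 2 for log2 levels. A gene was called separated where the ranges of the groups did not overlap. Alternatives were DESeq2 1.42.0, also with an empirical null, limma 3.58.1 (voom), other scalings and filters, a GC offset, a replicate block and libraries left out. GENCODE M21 supplied symbols (18718 of 18911 genes), positions, lengths and GC content, and RefSeq the sequences. The fits were tested on simulated counts. The study's methods put DESeq2 z-scores through fdrtool, and the empirical null here is a substitute for it, fitted to the genes with the smaller absolute z-scores.

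Fold changes are printed for Plagl1, Igf2, Dlk1, Peg3, Cdkn1c, Ddc and Cobl (H19 and Meg3 were also named but not analysed), for genes with an adjusted or unadjusted p under 0.05, and for up to 6 separated genes per comparison with a mean of at least 50. Other genes with a fold change were chosen after their values were seen. Members, lists and tests were chosen with earlier results of these data known. Intervals on counts cover counting error only.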

Additional observations from a re-analysis of the deposited data

How the results depend on the processing

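The number of imprinted genes called stayed at 0 of 33 in all 6 comparisons under every alternative but 1: with an empirical null applied to DESeq2 it was 4 (Slc22a18, Cdkn1c, Usp29 and Mest) in Nes-Cre+/- Kmt2a+/LSL against Kmt2a+/LSL, 2 (Slc22a18 and Usp29) against Nes-Cre+/- Kmt2a+/+ and 1 (Mest) in Kmt2a+/LSL against the other 3 genotypes. That setting called 931, 253 and 423 of all genes there, against 0, 0 and 1, and 27, 3 and 15 in Kmt2a+/LSL against Kmt2a+/+, in Nes-Cre+/- Kmt2a+/+ against Kmt2a+/+ and for the difference of the allele's effect, against 0 each. The DESeq2 Wald test called 7, 7, 3, 3, 4 and 10 of all genes in the order of the report. Limma-voom with quality weights called 2, 2 and 4 for Kmt2a+/LSL against Kmt2a+/+, for Nes-Cre+/- Kmt2a+/LSL against Kmt2a+/LSL and for Kmt2a+/LSL against the other 3 genotypes, and the requirement of at least 10 counts in every library 2 in the last of these. A GC offset, chosen after seeing the data, called 2, 1 and 2 in those comparisons, and 1 and 2 in the latter pair with the replicate block. Without both libraries of highest mitochondrial share, also chosen after seeing the data, the counts were 4, 1 and 2 there and 1 for Nes-Cre+/- Kmt2a+/+ against Kmt2a+/+. Leaving out single libraries gave 0 to 2, 0 to 1 and 0 to 2 genes there. The cause of these differences was not tested.

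Genes at an unadjusted p under 0.05 ranged over the alternatives from 139 to 2569, 124 to 2753, 52 to 1953, 98 to 1991, 85 to 2148 and 134 to 1992 in the 6 comparisons, and imprinted genes among them from 0 to 9, 8, 5, 6, 4 and 5. Separated imprinted genes numbered 1 to 9, 3 to 7, 3 to 8, 1 to 8 and 0 to 1 with single libraries left out, while 7.51% to 28.8%, 13.3% to 18.6%, 11.6% to 21.9%, 7.17% to 29.3% and 0.439% to 1.62% of all genes were separated. Without both libraries of highest mitochondrial share they numbered 9, 7, 8 and 8 in the first 4 comparisons, or 27.3%, 21.2%, 24.2% and 24.2% of the 33, against 28.8%, 18.6%, 18.9% and 29.3% of all genes. Scaling by the library total gave 1 for Nes-Cre+/- Kmt2a+/LSL against Nes-Cre+/- Kmt2a+/+.

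Signs in Kmt2a+/LSL against Kmt2a+/+ turned for Dlk1 (log2 fold change 0.15 with limma-voom, -0.55 to 0.058 with single libraries left out), Peg3 (0.26 with limma-voom, 0.23 without the libraries of highest mitochondrial share, -0.37 to 0.23 with single libraries left out), Cobl (0.051 without those libraries, -0.74 to 0.058) and Ddc (-0.23 to 0.31). In Nes-Cre+/- Kmt2a+/LSL against Kmt2a+/LSL they turned for Ddc (-0.11 to 0.42 with single libraries left out, -0.10 without Nes-Cre+/- Kmt2a+/LSL replicate 2) and Copg2 (-0.037 to 0.12, and -0.057 without the libraries of highest mitochondrial share). Ndn stayed between -0.43 and -0.34, and Mest in the second comparison between 0.36 and 0.73.

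The labels do not say that a replicate number marks a shared litter, batch or day. Same-numbered libraries of different genotypes correlated in their deviations from -0.072 to 0.42 (mean 0.084 over 18 pairs), and differently numbered ones had a mean of -0.041 (36 pairs). Not every same-numbered pair was above 0.1, so the numbers were not taken to pair the cultures, but 8 of 12 libraries correlated best with their own number, a hint from the data and not the design. The replicate block left 0 genes called in all 6 comparisons, where the fit without it had 1 for Kmt2a+/LSL against the other 3 genotypes. Genes with few counts limit what can be seen: 9 of the 33 had a mean under 50.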
